A study of Mus musculus with 6 samples.

Results

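The 10 genes described here (Aqp4, Slc1a2, Slc1a3, Aldh1l1, Gja1, Gjb6, Glul, S100b, Aldoc and Sox9) are commonly used to mark astrocytes that perform their resting support functions. They were chosen by gene symbol, each symbol matched 1 gene of the 50383 in the tables, and all 10 were among the 14664 genes tested. Each sample was RNA from the lateral amygdala, where fear associations are formed and stored, taken from male mice aged 2 to 3 months of the strain 129xC57BL/6 hybrid. The groups were Baf53b siRNA (a small interfering RNA against the neuronal chromatin subunit BAF53b, encoded by Actl6b, given 1 day after training), scrambled siRNA (a control siRNA) and control, with 2 libraries each. The labels do not give what the control mice received, nor the training or injection day of the other groups. They mention tissue from 4 mice without saying how animals map to libraries, so the p-values measure the spread between these libraries, which may be technical.

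Astrocytes clear the transmitter glutamate from synapses through membrane transporters, convert it to glutamine and return that to neurons. Their endfeet on blood vessels carry the water channel aquaporin 4, and gap junctions couple neighbouring astrocytes into a network. In injured or inflamed tissue astrocytes become reactive, a state marked by the filament protein Gfap, and the genes of resting function may change or stay level while this happens.

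Levels are in FPKM, fragments scaled to transcript length and to the mapped fragments of the library, with the interval that the authors deposited beside each value. No read counts were used here, so the sequencing depth is unknown. Actl6b, the siRNA target, was at 42.8 and 39.6 FPKM in the Baf53b siRNA libraries, against 43.8 and 43.9 FPKM with scrambled siRNA and 42.9 and 44.1 FPKM in controls. The log2 difference in Actl6b between Baf53b siRNA and scrambled siRNA was -0.09, with a 95% interval of -0.38 to 0.21 (limma adjusted p of 1). A fall of the target RNA was therefore not detected, with an interval that reached no lower than -0.38. Directions below refer to libraries as labelled. Mitochondrial genes made up 19.3% to 22.8% of all FPKM in Baf53b siRNA, 15.0% to 26.9% in scrambled siRNA and 19.4% to 29.5% in control. In bulk tissue, fewer cells of a type and less RNA per cell cannot be told apart.

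All 10 genes were expressed in every library. Glul and Aldoc were the highest in each group, with means of 332 ± 18.3 and 322 ± 21.6 FPKM in Baf53b siRNA, 350.1 ± 2.12 and 348 ± 37.1 FPKM in scrambled siRNA, and in control 338 ± 63.3 and 318 ± 11.2 FPKM (SD, n = 2). Their libraries overlapped within each group, so neither stood above the other. Slc1a2, Slc1a3, Gja1 and S100b followed in this order in each group, and only Gja1 and S100b in scrambled siRNA overlapped. Sox9 was the lowest in each group, at 3.46 to 5.19 FPKM over the 6 libraries. The order changed at one place. Aqp4 stood above Gjb6 with no overlap in Baf53b siRNA, overlapped Gjb6 in scrambled siRNA, and overlapped it again in control, where its mean was the lower of the pair.

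**Figure D1:**
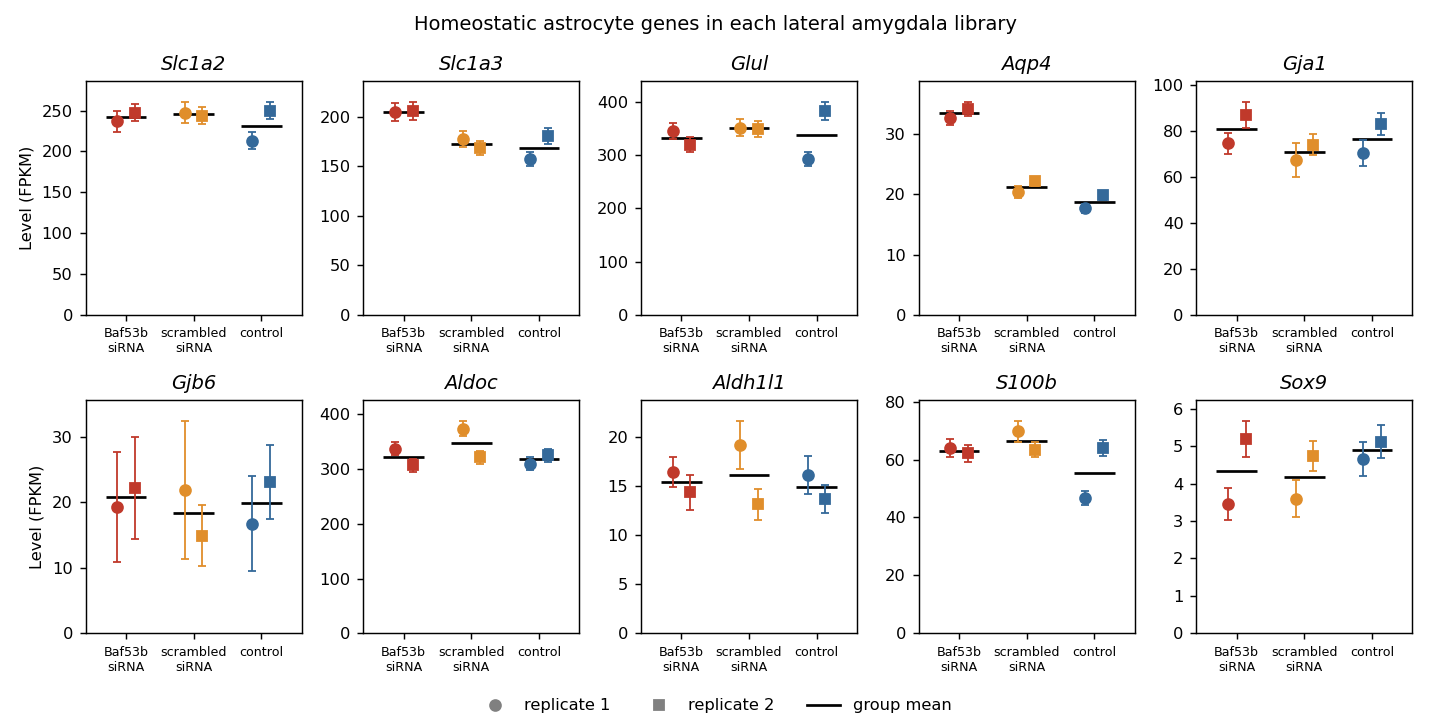
Level of each of the 10 homeostatic astrocyte genes in each library, in FPKM on axes from 0, with Baf53b siRNA, scrambled siRNA and control from left to right. Circles are replicate 1, squares replicate 2, vertical bars the authors' deposited intervals and horizontal lines group means. Aqp4 lies at 32.7 and 34.1 FPKM in Baf53b siRNA, above the 17.6 to 22.1 FPKM of the other 4 libraries, while most other genes overlap between groups.

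Aqp4, the water channel of astrocyte endfeet, was the 1 gene of the 10 that rose, and it did so in Baf53b siRNA against control. Its level was 32.7 and 34.1 FPKM in Baf53b siRNA, 20.4 and 22.1 FPKM in scrambled siRNA libraries, and 17.6 and 19.8 FPKM in control. The 3 groups did not overlap and followed the order Baf53b siRNA, scrambled siRNA, control. The means were 33.4 ± 1.02 FPKM in Baf53b siRNA, 21.3 ± 1.22 FPKM in scrambled siRNA and 18.7 ± 1.55 FPKM in control (SD, n = 2). Aqp4 (ENSMUSG00000024411.9, protein coding) lies on chromosome 18 from 15389394 to 15403684, minus strand, in build mm10 in the authors' tables. GENCODE M21, on the same build, gives this gene other ends, 15389496 to 15410982, so the authors used a different gene model, and the antisense gene AC133525.2, which overlaps Aqp4 there, was not analysed here.

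Tests were made with limma over all genes tested on log2(FPKM + 1), where changes of weakly expressed genes come out too small, and a call is an adjusted p under 0.05. Against control, Aqp4 in Baf53b siRNA differed by 0.80 (SE 0.13, 95% interval 0.49 to 1.12, limma adjusted p = 0.0446), a ratio of means of 1.78. In this comparison 1.23% of all genes tested were called, all of them higher, and 1 of the 10 astrocyte genes was. At an unadjusted p under 0.05 the share of all genes was 4.75% higher and 0.273% lower, and Aqp4 was the 1 such gene of the 10. Aqp4 had the smallest difference of the 181 genes called, and 2.30% of all genes tested had a larger difference. The call was lost in 14 of 16 alternative settings, among them each that left a library out (adjusted p of 0.0187 to 0.349 over the 16), while the difference stayed between 0.72 and 0.88.

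Against scrambled siRNA, Aqp4 in Baf53b siRNA differed by 0.63 (SE 0.13, 95% interval 0.31 to 0.94), a ratio of means of 1.57 that did not pass (unadjusted p = 0.00216, limma adjusted p = 0.341). It passed in no alternative setting, with an adjusted p of 0.124 to 1. In this comparison 0.123% of all genes tested were called, and none of the 10 astrocyte genes was, with Aqp4 the 1 of them at an unadjusted p under 0.05, where the share of all genes was 2.67% higher and 0.361% lower. Between scrambled siRNA and control, Aqp4 differed by 0.17 (SE 0.13, 95% interval -0.14 to 0.49, limma adjusted p of 1). There limma called 0 of the genes tested, a share of 0%, and none of the 10. At an unadjusted p under 0.05 it gave 298 genes higher (2.03%) and 27 lower (0.184%), none of them among the 10. The comparisons share libraries, so their values are not independent of each other.

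**Figure D2:**
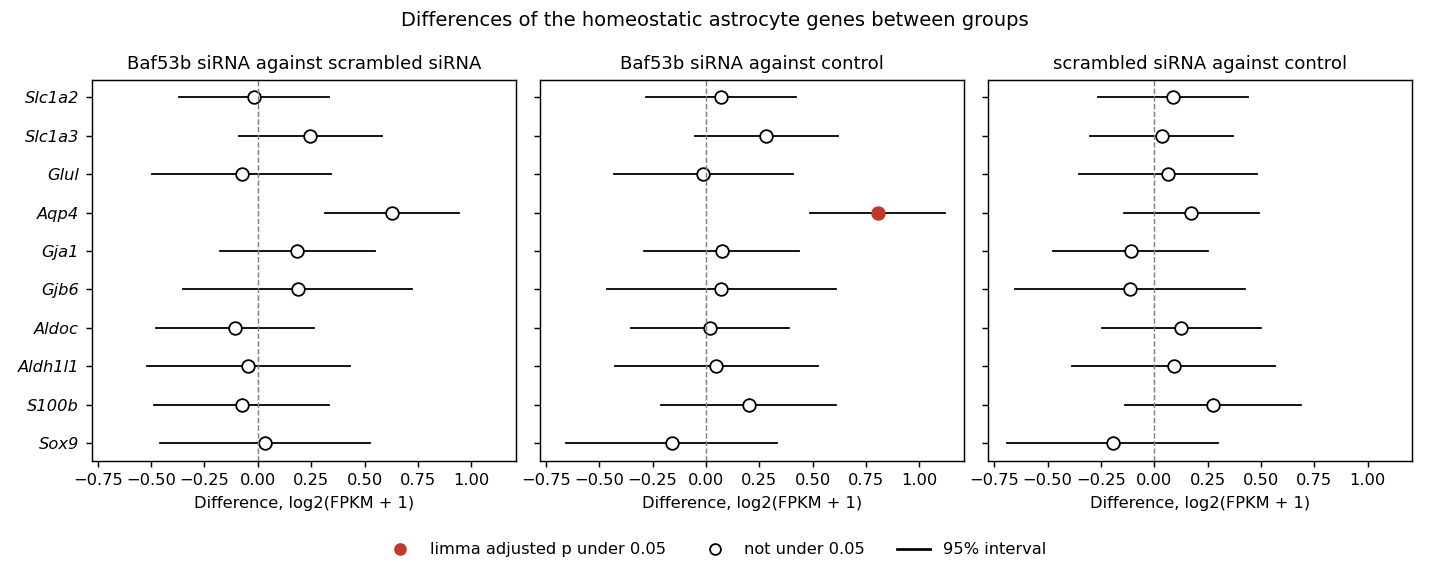
Difference between groups for each of the 10 genes, on the log2(FPKM + 1) scale, with 95% limma intervals, for Baf53b siRNA against scrambled siRNA, Baf53b siRNA against control, and scrambled siRNA against control. The filled point marks the 1 call, Aqp4 at 0.80 against control; its interval against scrambled siRNA, 0.31 to 0.94, also lies above 0, and the intervals of the other 9 genes span 0 in each panel.

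Neither glutamate transporter passed in any comparison, and Slc1a3 had both Baf53b siRNA libraries on top while Slc1a2 did not. Slc1a2, which encodes GLT-1, the main glutamate transporter of forebrain astrocytes, was at 237 and 247.5 FPKM in Baf53b siRNA, 247.1 and 244 FPKM with scrambled siRNA, and 213 and 249.8 FPKM in control. All 3 groups overlapped, and the difference of Baf53b siRNA was -0.02 against scrambled siRNA (SE 0.15, 95% interval -0.37 to 0.33) and 0.07 against control (SE 0.15, 95% interval -0.28 to 0.42). Slc1a3, which encodes the second astrocyte transporter GLAST, was at 204 and 206 FPKM in Baf53b siRNA, 177 and 168 FPKM in scrambled siRNA libraries, and 157 and 180.3 FPKM in control. Both Baf53b siRNA libraries lay above the other 4, while scrambled siRNA and control overlapped. Of all genes tested, 13.1% had both Baf53b siRNA libraries above scrambled siRNA and 16.7% had both above control. The difference of Slc1a3 in Baf53b siRNA was 0.25 against scrambled siRNA (SE 0.14, 95% interval -0.09 to 0.58) and 0.28 against control (SE 0.14, 95% interval -0.05 to 0.62), and neither passed (limma adjusted p of 1).

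The ratio of Slc1a2 to Slc1a3 within a library, computed after these values were seen and not tested, was 1.16 and 1.20 in Baf53b siRNA, 1.39 and 1.45 in scrambled siRNA, and 1.35 and 1.39 in control. Both Baf53b siRNA libraries had the lower ratio. Slc1a2 (ENSMUSG00000005089.15) lies on chromosome 2 from 102658659 to 102790784, plus strand, and Slc1a3 (ENSMUSG00000005360.14) on chromosome 15 from 8634124 to 8710764, minus strand, both protein coding. Slc1a2 overlaps an antisense gene, Gm13872, that was at up to 1.80 FPKM.

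Glul encodes glutamine synthetase, which turns the glutamate taken up into glutamine. It was at 345 and 319 FPKM in Baf53b siRNA, 352 and 349 FPKM with scrambled siRNA, and 293 and 383 FPKM in control. The control libraries enclosed all others, and the Baf53b siRNA libraries lay just below the scrambled siRNA libraries. The difference was -0.08 against scrambled siRNA (SE 0.18, 95% interval -0.49 to 0.34) and -0.01 against control (SE 0.18, 95% interval -0.43 to 0.41), neither passing (limma adjusted p of 1). Glul (ENSMUSG00000026473.15, protein coding) lies on chromosome 1 from 153899944 to 153909723, plus strand.

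The gap junction genes did not pass in any comparison. Gja1 encodes connexin 43 and was at 74.6 and 86.9 FPKM in Baf53b siRNA, 67.5 and 74.1 FPKM in scrambled siRNA libraries, and 70.3 and 83.0 FPKM in control. Its Baf53b siRNA libraries lay just above scrambled siRNA (difference 0.18, SE 0.15, 95% interval -0.18 to 0.55, limma adjusted p of 1) and overlapped control (0.07, SE 0.15). Gjb6 encodes connexin 30, a second astrocyte connexin, and was at 19.3 and 22.2 FPKM in Baf53b siRNA, 21.9 and 14.9 FPKM with scrambled siRNA, and 16.7 and 23.1 FPKM in control. All groups of Gjb6 overlapped, with differences of Baf53b siRNA of 0.19 against scrambled siRNA (SE 0.23) and 0.07 against control (SE 0.23).

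Gjb6 was also the least precisely measured of the 10, with a deposited interval of ± 24.3% to 48.2% of its value in a library, against ± 3.25% to 13.5% for the others. The ratio of Gja1 to Gjb6 was 3.86 and 3.91 in Baf53b siRNA, 3.08 and 4.96 in scrambled siRNA, and 4.21 and 3.59 in control, with all groups overlapping. Gja1 (ENSMUSG00000050953.10) lies on chromosome 10 from 56377330 to 56402513, plus strand, and Gjb6 (ENSMUSG00000040055.8) on chromosome 14 from 57123303 to 57133611, minus strand, both protein coding.

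The metabolic genes lay close together across groups. Aldoc encodes aldolase C, a brain enzyme of glycolysis, and was at 338 and 307 FPKM in Baf53b siRNA, 374 and 322 FPKM in scrambled siRNA libraries, and 310.1 and 326 FPKM in control. Its groups overlapped, with a difference of Baf53b siRNA of -0.11 against scrambled siRNA (SE 0.16, 95% interval -0.48 to 0.26) and 0.02 against control (SE 0.16, 95% interval -0.35 to 0.39). Aldh1l1 encodes a folate enzyme used as an astrocyte marker and was at 16.5 and 14.4 FPKM in Baf53b siRNA, 19.2 and 13.2 FPKM with scrambled siRNA, and 16.2 and 13.7 FPKM in control. Its groups overlapped as well, with differences of -0.04 (SE 0.20) against scrambled siRNA and 0.05 (SE 0.20) against control. Aldoc (ENSMUSG00000017390.15) lies on chromosome 11 from 78322968 to 78327781 and Aldh1l1 (ENSMUSG00000030088.15) on chromosome 6 from 90486427 to 90600203, both on the plus strand and protein coding.

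S100b encodes a calcium-binding protein of astrocytes that is also made by some cells of the oligodendrocyte lineage. It was at 63.9 and 62.1 FPKM in Baf53b siRNA, 69.7 and 63.4 FPKM in scrambled siRNA libraries, and 46.8 and 64.0 FPKM in control. Control replicate 1 stood apart at the low end, and the other 5 libraries lay between 62.1 and 69.7 FPKM. The difference of Baf53b siRNA was 0.20 against control (SE 0.17, 95% interval -0.21 to 0.61), which became -0.022 without control replicate 1, and -0.08 against scrambled siRNA (SE 0.17). Its largest difference was 0.28 in scrambled siRNA against control (SE 0.17, 95% interval -0.14 to 0.69, limma adjusted p of 1). S100b (ENSMUSG00000033208.7, protein coding) lies on chromosome 10 from 76253853 to 76261159, plus strand. It overlaps Dip2a on the opposite strand, a gene at up to 13.5 FPKM, and whether the authors counted by strand is not given in the sources used here.

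Sox9 encodes a transcription factor found in nearly all adult astrocytes and in ependymal cells. It was at 3.46 and 5.19 FPKM in Baf53b siRNA, 3.60 and 4.74 FPKM with scrambled siRNA, and 4.65 and 5.11 FPKM in control. The groups overlapped, and the difference of Baf53b siRNA was 0.03 against scrambled siRNA (SE 0.21, 95% interval -0.46 to 0.53) and -0.16 against control (SE 0.21, 95% interval -0.65 to 0.33). Replicate 2 was the higher library in each group for Sox9, Gja1 and Aqp4, and the lower one in each group for Aldh1l1. Over all genes tested replicate 2 was the higher in each group for 11.4% and the lower in each group for 37.1%. Sox9 (ENSMUSG00000000567.5, protein coding) lies on chromosome 11 from 112782224 to 112787760, plus strand.

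As a set, the 10 genes centred near 0. Their median difference was 0.01 in Baf53b siRNA against scrambled siRNA and 0.07 in Baf53b siRNA against control, with 5 of 10 and 8 of 10 above 0. It was 0.08 in scrambled siRNA against control, with 7 of 10 above 0. Of 14664 genes tested, 7470, 8901 and 9321 were above 0 in these comparisons, with medians of 0.0026, 0.0375 and 0.0407. Leaving out 1 library turned the sign of each median of the 10. Without scrambled siRNA replicate 2 the first was -0.053, and without control replicate 1 the others were -0.033 and -0.044. With all libraries kept, the first was -0.0083 under quantile normalization and -0.011 when rescaled without mitochondrial genes. It was -0.019 with a minimum mean of 5 FPKM, where Sox9 has no value. Against scrambled siRNA, 3 of the 10 had both Baf53b siRNA libraries on top (Aqp4, Slc1a3 and Gja1) and 1 had both below (Glul), where 13.1% and 9% of all genes tested did. Against control 2 of the 10 had both on top (Aqp4 and Slc1a3) and 0 both below, where 16.7% and 7.11% of all genes did. In scrambled siRNA against control 1 of the 10 had both on top (Aqp4) and 0 both below, where 12.7% and 5.57% of all genes did.

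Set against the geometric mean of the other 9 genes in the same library, Aqp4 was at a ratio of 0.483 and 0.482 in Baf53b siRNA, 0.291 and 0.341 in scrambled siRNA, and 0.287 and 0.278 in control. The geometric mean of those 9 was 67.7 and 70.8 FPKM in Baf53b siRNA, 70.2 and 64.8 FPKM in scrambled siRNA libraries, and 61.5 and 71.4 FPKM in control. The 9 genes overlapped between all groups on this measure, and the ratio of Aqp4 to them did not overlap between Baf53b siRNA and the other groups. These ratios describe a gene picked for its difference and were not tested.

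**Figure D3:**
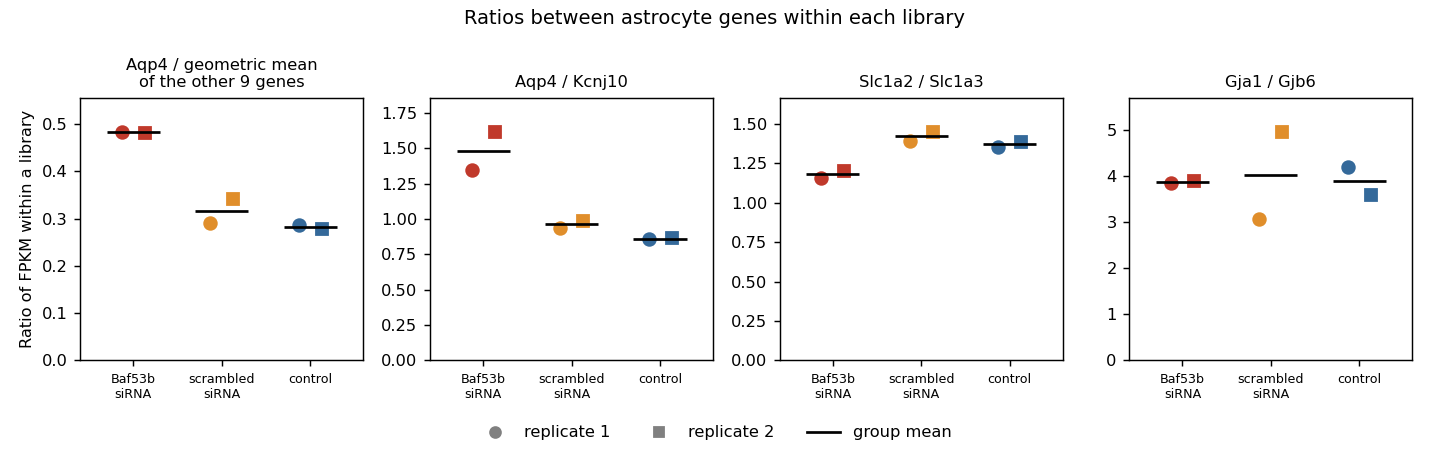
Ratio of FPKM between astrocyte genes within each library, on axes from 0, for Baf53b siRNA, scrambled siRNA and control from left to right; circles are replicate 1, squares replicate 2 and lines group means. Aqp4 against the other 9 genes is near 0.48 in both Baf53b siRNA libraries and 0.278 to 0.341 in the other 4, Aqp4 against Kcnj10 is 1.35 and 1.61 in Baf53b siRNA and under 1 elsewhere, Slc1a2 against Slc1a3 is lowest in Baf53b siRNA at 1.16 and 1.20, and Gja1 against Gjb6 overlaps between all groups.

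Genes that act beside the 10 were read from 5 lists covering transmitter handling, ion and water balance, metabolism, regulators and further astrocyte markers. Of 74 genes listed 72 were tested, and 1 of them rose in Baf53b siRNA against control while 0 fell, where 1.23% of all genes were called. Against scrambled siRNA 0 of 72 were called in limma, 1 (Abca1) was at an unadjusted p under 0.05, and 34 were above 0 and 38 below, with a median of -0.02. Against control 5 were at an unadjusted p under 0.05 (Abca1, Apoe, Id3, Slc16a1 and Slc7a11, all higher), and 37 were above 0 and 35 below, with a median of 0.01. Of 14664 genes tested, 7470 were above 0 against scrambled siRNA and 8901 against control. In scrambled siRNA against control 0 of 72 were called in limma, 2 (Abca1 and Id3) were higher at an unadjusted p under 0.05, and the median was 0.06.

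The called gene was Abca1, a cholesterol and phospholipid exporter that microglia also express. It was at 9.10 and 11.4 FPKM in Baf53b siRNA, 6.58 and 5.31 FPKM with scrambled siRNA, and 4.52 and 3.78 FPKM in control. The 3 groups did not overlap, and the difference was 1.12 against control (SE 0.18, limma adjusted p = 0.0375) and 0.69 against scrambled siRNA (SE 0.18, limma adjusted p = 0.576). The call against control was lost when any 1 of the 6 libraries was left out.

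Among 17 metabolic genes no other passed, and the 2 most abundant were the lipoprotein genes Apoe and Clu. Apoe averaged 2295 ± 132 FPKM in Baf53b siRNA, 1728 ± 165 FPKM in scrambled siRNA and 1506 ± 132 FPKM in control (SD, n = 2), and Clu averaged 616 FPKM, 534 FPKM and 476 FPKM in the same groups. Microglia make Apoe too, and the part of other cells in its level was not tested.

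Genes of ion and water balance are the closest to Aqp4 by place, since potassium channels share its endfoot membrane. None of 11 tested passed against scrambled siRNA or control, with differences between -0.10 and 0.31 over both comparisons. Among the most abundant was the sodium pump subunit Atp1b2, at 132, 143 and 133 FPKM on average in Baf53b siRNA, scrambled siRNA and control. Kcnj10, the inward rectifier potassium channel Kir4.1, was at 24.2 and 21.1 FPKM in Baf53b siRNA, 21.8 and 22.4 FPKM in scrambled siRNA libraries, and 20.6 and 22.9 FPKM in control, with all groups overlapping. The ratio of Aqp4 to Kcnj10 was 1.35 and 1.61 in Baf53b siRNA, 0.936 and 0.988 in scrambled siRNA, and 0.858 and 0.864 in control. Kcnj10 and this ratio were chosen after their values were seen and the ratio was not tested.

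In the list for glutamate, GABA and glutamine handling, none of 10 passed and 8 of 10 were below 0 both against scrambled siRNA and against control, with medians of -0.11 in each. Of 14664 genes tested, 7470 were above and 7189 below 0 against scrambled siRNA, and 8901 above and 5758 below 0 against control. The most abundant were Got1, an aspartate aminotransferase, at 107, 116 and 114 FPKM in Baf53b siRNA, scrambled siRNA and control, and glutamate dehydrogenase Glud1, at 109.7, 106 and 107 FPKM. Among 16 transcription factors and receptors none passed, 12 were above 0 against scrambled siRNA and 12 against control. The most abundant of them were Id2 (79.6, 81.3 and 76.7 FPKM) and Gpr37l1 (60.0, 59.3 and 54.4 FPKM). Among 18 further astrocyte markers tested none passed, 8 were above 0 against scrambled siRNA and 6 against control. Sparcl1, a secreted synaptogenic protein, was at 658, 676 and 672 FPKM and the metallothionein Mt3 at 309, 303 and 255 FPKM.

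Of 20 reactive astrocyte genes listed 13 were tested, and some of them rose in Baf53b siRNA. C3, Cxcl10 and Osmr, 3 of the 13, passed the filter on low values only through the Baf53b siRNA libraries, so they had to differ. They are left out of the counts and medians given for the other 10. Of the other 10, against scrambled siRNA 3 rose in Baf53b siRNA (Gfap, H2-D1 and C4b) and the median was 0.97. Against control 7 of the 10 rose and the median was 1.59, while Hspb1, S1pr3 and Stat3 passed in neither comparison. Lcn2, 1 of the 7, was at 0 in both control libraries. It passed the filter through the siRNA libraries alone, so it had to be higher against control and is no support there. In scrambled siRNA against control limma called 0 of the 13, with 5 higher at an unadjusted p under 0.05. This way of counting was chosen after the data were seen. Gfap was at 169.9 and 178 FPKM in Baf53b siRNA, 45.1 and 47.3 FPKM with scrambled siRNA, and 16.9 and 18.3 FPKM in control. C3, a complement protein, was at 9.99 and 11.2 FPKM in Baf53b siRNA, 0.946 and 0.397 FPKM in scrambled siRNA libraries, and 0.242 and 0.206 FPKM in control. H2-D1, an MHC class I gene, was at 104 and 73.9 FPKM in Baf53b siRNA, 21.0 and 19.4 FPKM with scrambled siRNA, and 7.48 and 6.43 FPKM in control. For Gfap and H2-D1 both Baf53b siRNA libraries were on top, as for 13.1% of all genes tested against scrambled siRNA and 16.7% against control. Their differences were 1.89 and 2.06 against scrambled siRNA (limma adjusted p = 0.0111 and 0.0304). That of C3 was 2.81, which is no support, since C3 passed the filter only through the Baf53b siRNA libraries. Over all 13, C3, Cxcl10 and Osmr included, the calls numbered 4 against scrambled siRNA and 10 against control. The counts in the alternatives below are on this wider basis, so they can hold genes that the filter made differ. H2-D1 and C4b lost their calls against scrambled siRNA with a pseudocount of 0.1, with small RNA genes kept and without a filter on low values. They also lost them without either control library, either scrambled siRNA library or Baf53b siRNA replicate 1, and C4b without Baf53b siRNA replicate 2. Gfap lost its call without a filter and without scrambled siRNA replicate 1. Against scrambled siRNA the count over all 13 was 1 (Gfap) with a pseudocount of 0.1 and 2 (Gfap and C3) with small RNA genes kept. This count was 0 without a filter. Against control it was 4 without either control library or Baf53b siRNA replicate 1, 5 without Baf53b siRNA replicate 2 or without a filter, and 6 with a minimum mean of 5 FPKM.

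Within a library Gfap stood at 5.20 and 5.21 times the FPKM of Aqp4 in Baf53b siRNA, 2.21 and 2.14 times in scrambled siRNA, and 0.956 and 0.924 times in control. The order of the 3 groups was the same for Gfap and Aqp4, with no overlap in either. Lcn2, an acute phase gene that was called against control, was at 9.88 and 10.2 FPKM in Baf53b siRNA and 10.2 and 3.24 FPKM in scrambled siRNA, and was listed at 0 in both control libraries. Astrocytes are not the only source of several genes on this list, as C3, C4b and H2-D1 are also made by microglia, leukocytes or other cells.

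**Figure D4:**
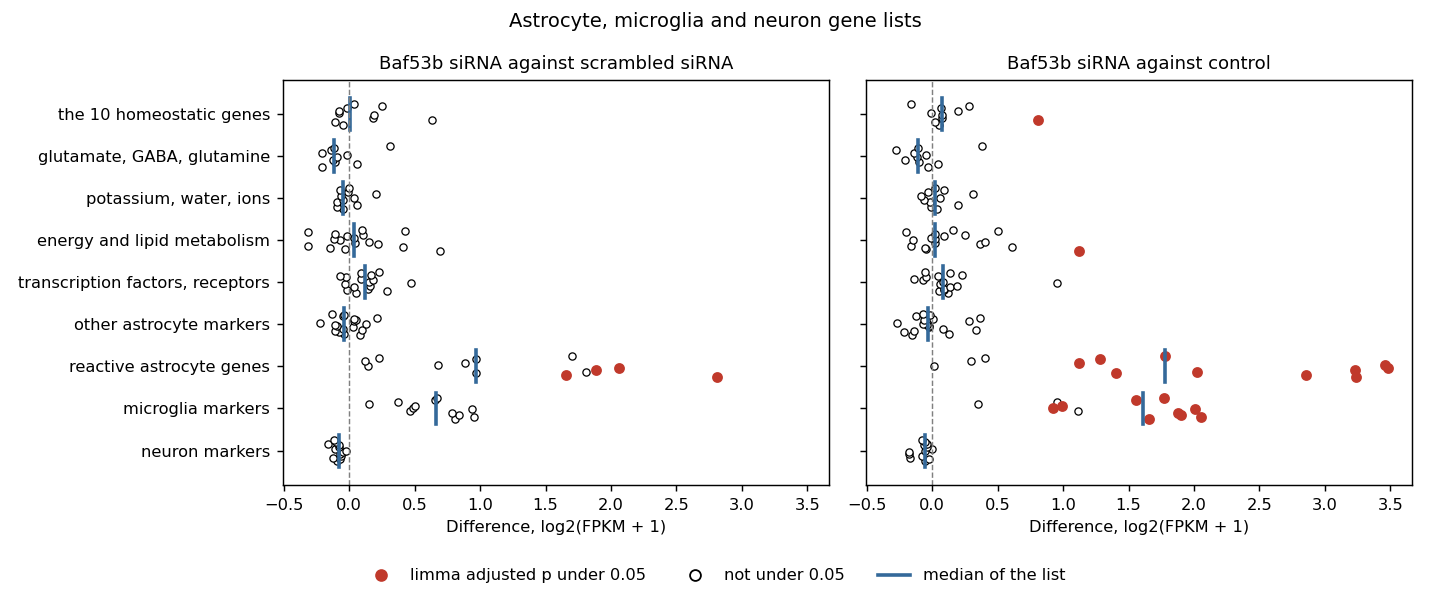
Difference of each tested gene on the log2(FPKM + 1) scale in Baf53b siRNA against scrambled siRNA (left) and against control (right), by gene list. Filled points have a limma adjusted p under 0.05, open points do not, and blue bars are list medians; the medians of the 10 genes, the homeostatic lists and the neuron markers lie between -0.11 and 0.12, while the 13 reactive astrocyte genes, 3 of which passed the filter only through the Baf53b siRNA libraries, have medians of 0.97 and 1.78 and microglia markers 0.66 and 1.61.

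Microglia and leukocyte markers were higher in level in Baf53b siRNA, and calls among microglia markers were made against control. All 12 microglia markers were above 0 in Baf53b siRNA, with 0 called by limma against scrambled siRNA (9 at an unadjusted p under 0.05, median 0.66) and 9 called against control (median 1.61). In scrambled siRNA against control limma called 0 of the 12, with 10 higher at an unadjusted p under 0.05 and a median of 0.87. Against control the count was 4 without Baf53b siRNA replicate 1, 5 without either control library, and 2 without a filter on low values. The largest called differences were those of the complement genes C1qa (2.05) and C1qb (1.90) and the protease Ctss (2.01), with limma adjusted p = 0.00603, 0.00790 and 0.00306. The summed level of the 12 was 959 to 1166 FPKM in Baf53b siRNA, 637 to 646 FPKM in scrambled siRNA and 359 to 365 FPKM in control, and none was at 0. Ctss was among the most abundant, at 244, 127 and 60.0 FPKM on average in Baf53b siRNA, scrambled siRNA and control. The 12 infiltrating leukocyte markers summed to 159.7 to 325 FPKM in Baf53b siRNA, 21.2 to 25.6 FPKM in scrambled siRNA and 4.93 to 6.20 FPKM in control. Of 4 tested, the antigen presentation genes Cd74 and H2-Aa rose against both groups and Ptprc against control. Cd74 and H2-Aa averaged 0.80 and 0.52 FPKM in control, below the filter of 1 FPKM. They passed it through the siRNA libraries, so they had to be higher against control and their calls there are no support. Both calls against scrambled siRNA were lost with a pseudocount of 0.1, without a filter, with small RNA genes kept, and without control replicate 1 or either scrambled siRNA library. That of H2-Aa was also lost without control replicate 2 or Baf53b siRNA replicate 1 and in a fit of the pair alone. Against control Cd74 kept its call in all 16 alternatives, H2-Aa lost it without a filter, and Ptprc lost it there, with a minimum mean of 5 FPKM and without any 1 of the control or Baf53b siRNA libraries. These checks of the leukocyte list were chosen after the data were seen. Cd74, also made by activated microglia, was at 211 and 102 FPKM in Baf53b siRNA, 9.74 and 7.37 FPKM in scrambled siRNA libraries, and 1.18 and 0.416 FPKM in control. No leukocyte marker was at 0 in Baf53b siRNA, 0 to 1 were at 0 in a scrambled siRNA library, and 3 to 4 of the 12 were at 0 in a control library, among them Cd3e and S100a9 in both. The part of these cells in the levels of Aqp4, Slc1a3 and Abca1 was not tested.

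The markers of neurons, oligodendrocytes, their precursors, endothelium and ependyma held no call by limma in any comparison, with 0 of them at an unadjusted p under 0.05 in Baf53b siRNA against scrambled siRNA. Against control Ly6a, Abcb1a, Cnp and Gpr17 were higher and Ccdc153 lower at that level, and Ly6a was higher in scrambled siRNA against control. Neuron markers, among which Camk2a and Snap25 were the most abundant, summed to 3687 to 4309 FPKM in Baf53b siRNA, 4112 to 4415 FPKM in scrambled siRNA and 4102 to 4183 FPKM in control over 13 genes. All 13 were below 0 against scrambled siRNA (median -0.08), where 7189 of 14664 genes tested were. Oligodendrocyte markers, among them Mbp, summed to 1017 to 1029 FPKM in Baf53b siRNA, 1050.0 to 1123 FPKM in scrambled siRNA and 781 to 985 FPKM in control. Precursor markers, led by Tnr and Olig1, summed to 115.7 to 116.1 FPKM in Baf53b siRNA, 105 to 126 FPKM in scrambled siRNA and 104 to 107 FPKM in control. Endothelial markers, led by Slco1a4 and Ly6a, summed to 68.3 to 86.3 FPKM in Baf53b siRNA, 66.4 to 67.5 FPKM in scrambled siRNA and 48.2 to 60.2 FPKM in control. Ependymal and choroid plexus markers, led by Rarres2 and Ccdc153, summed to 18.8 to 29.1 FPKM in Baf53b siRNA, 17.8 to 33.2 FPKM in scrambled siRNA and 28.4 to 37.2 FPKM in control. For comparison, the 10 homeostatic astrocyte genes summed to 1304 to 1335 FPKM in Baf53b siRNA, 1275 to 1353 FPKM in scrambled siRNA and 1146 to 1347 FPKM in control, with all groups overlapping.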

How the data were processed

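For each library the authors deposited FPKM values by gene with lower and upper confidence bounds, per the file headers. Libraries were poly(A) selected with a stranded kit, per the labels' protocols. The submitters' processing notes name TopHat2 2.1.1, Cufflinks 2.2.1, bcl2fastq 2.19.1.403 and build mm10; the annotation release is not given in the sources used here. Abundant transcripts of one library lower the FPKM of its other genes.

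Spike-in rows and 4 genes with a failed estimate were left out, and rows of 1 gene ID were summed. A gene was tested if its FPKM averaged 1 or more across all 6 libraries, without 353 small RNA genes. The deposited starts count from 0 and are printed counting from 1. Gene types, strands and overlapping genes come from GENCODE M21, which matched 50160 of 50383 IDs.

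Group means of log2(FPKM + 1) were fitted over all 6 libraries with limma (version 3.58.1, under R 4.3.3) with an eBayes trend, 3 residual and 3.99 prior degrees of freedom. Tests were two-sided with Benjamini-Hochberg adjustment over 14664 genes, and the fit was tested on simulated data. Intervals are 95% limma intervals.

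The 10 genes and the other 13 gene lists were chosen with earlier results of these data known. The rule for naming took all 10 genes and, from each other list, up to 3 called genes with the largest difference per comparison and the 2 most abundant genes where none passed or where the list marks the reactive state or another cell type; some genes that the rule names are not reported here. Alternatives changed the pseudocount, filters, scaling, fit and libraries.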

Additional observations from a re-analysis of the deposited data

Results flagged for a closer look

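The tables hold 92 rows of synthetic spike-in RNA that entered no comparison. Their summed FPKM was above both control libraries in each siRNA library, at 4825 and 811 FPKM in Baf53b siRNA and 207 and 656 FPKM in scrambled siRNA, against 117 and 125 FPKM in control. The labels do not say how they were added, so they were not used for scaling.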

How the results depend on the processing

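Aqp4 kept its direction in all 16 alternatives of each comparison, between 0.57 and 0.69 in Baf53b siRNA against scrambled siRNA, 0.72 and 0.88 against control, and 0.09 and 0.25 in scrambled siRNA against control. Its call against control, and with it the count of 1 of the 10 genes, was kept with a pseudocount of 0.1 and in the fit with the replicate block (adjusted p = 0.0187). The count was 0 without a filter on low values, with a minimum mean of 5 FPKM, with small RNA genes kept, under quantile normalization, with scaling to the median log2 ratio, when rescaled without mitochondrial genes, when the pair of groups was fitted on its own, without the trend and without any 1 library (0 in all 6). The cause was not tested.

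The count of all genes called against scrambled siRNA (18) was 1 with a pseudocount of 0.1, 0 without a filter, 8 with a minimum mean of 5 FPKM, 5 with small RNA genes kept, 29 without the trend, and 4 to 24 with a library left out. Against control (181) it was 42 without a filter, 71 with a minimum mean of 5 FPKM, and 34 to 139 with a library left out. Between scrambled siRNA and control (0) it was 1 in a fit of those groups alone and 0 to 7 with a library left out.

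None of the other 9 genes passed in any alternative, and of their values over the 3 comparisons 8 changed sign in at least 1 other setting and 19 with at least 1 library left out. Under quantile normalization the values that did so were Sox9 against scrambled siRNA (-0.010), Aldh1l1 and Aldoc against control (-0.020 and -0.045), and in scrambled siRNA against control Slc1a3 (-0.0069) and Glul (-0.033). With scaling to the median log2 ratio they were Aldoc against control (-0.028) and Slc1a3 in scrambled siRNA against control (-0.0089). Rescaled without mitochondrial genes, against control, they were Slc1a2 (-0.012), Aldh1l1 (-0.029), Gja1 (-0.0061), Gjb6 (-0.0060) and Aldoc (-0.063), and Slc1a3 (-0.027) in scrambled siRNA against control.

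With a library left out, values that changed sign ranged, in Baf53b siRNA against scrambled siRNA, from -0.30 to 0.21 (Aldh1l1), -0.22 to 0.00060 (Aldoc), -0.20 to 0.27 (Sox9), -0.077 to 0.45 (Gjb6) and -0.051 to 0.012 (Slc1a2). Against control they ranged from -0.064 to 0.16 (Aldh1l1), -0.050 to 0.087 (Aldoc), -0.044 to 0.19 (Gja1), -0.15 to 0.29 (Gjb6), -0.20 to 0.18 (Glul), -0.022 to 0.42 (S100b), -0.045 to 0.18 (Slc1a2) and -0.40 to 0.075 (Sox9). In scrambled siRNA against control they ranged from -0.17 to 0.35 (Aldh1l1), -0.23 to 0.0083 (Gja1), -0.38 to 0.15 (Gjb6), -0.13 to 0.26 (Glul), -0.026 to 0.20 (Slc1a2) and -0.062 to 0.13 (Slc1a3). The median of the 10 genes ranged from -0.053 to 0.13, -0.033 to 0.19 and -0.044 to 0.15 in the 3 comparisons.

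The replicate numbers are not said to mark a shared animal or day. Deviations of same-numbered libraries correlated at 0.18 to 0.39 across genes, and the replicate block changed no count of calls of the 10 genes and lost the call of Abca1. Sox9 was below the minimum mean of 5 FPKM and has no value there. A library left alone in its group is assumed to vary like the others. With 2 libraries a group, intervals of about ± 0.3 to 0.5 (log2) limit what could be seen for these genes.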

Other observations

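Some astrocyte genes outside the 10 had a higher or lower mean against control without passing, and were picked here after their values were seen. For Slc6a11 and Mlc1 the unadjusted limma p against control was 0.141 and 0.114, so no difference was shown for them. Id3, a transcriptional regulator, was at 21.3 and 23.3 FPKM in Baf53b siRNA, 19.4 and 12.9 FPKM in scrambled siRNA, and in control 11.7 and 10.4 FPKM (difference 0.95 against control, limma adjusted p = 0.116). Slc7a11, the cystine and glutamate exchanger, was at 11.3 and 12.7 FPKM in Baf53b siRNA, 8.93 and 10.1 FPKM in scrambled siRNA, and in control 8.95 and 9.01 FPKM (0.38 against control, limma adjusted p = 0.751). Slc6a11, the GABA transporter GAT-3, was at 29.7 and 25.8 FPKM in Baf53b siRNA, 33.4 and 28.1 FPKM in scrambled siRNA, and in control 37.8 and 30.3 FPKM (-0.28 against control, limma adjusted p of 1). Mlc1, a membrane protein of astrocyte endfeet, was at 77.1 and 72.7 FPKM in Baf53b siRNA, 75.7 and 55.7 FPKM in scrambled siRNA, and in control 61.3 and 59.3 FPKM (0.31 against control, limma adjusted p of 1).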
